A study of Mus musculus with 12 samples.

Results

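The 44 genes described here are direct targets of the peroxisome proliferator-activated receptors (PPARs) and genes of fatty acid uptake, storage and oxidation. They were chosen by name, as a list of symbols, with earlier results of these data known. All 44 were found among the 23337 symbols of the deposited count table, and 35 had enough reads to be tested, among 12406 genes tested in all. They were measured by RNA sequencing in NU1, a line of normal mouse urothelial cells that became immortal during passaging. The 12 libraries formed 4 groups of 3. Proliferating cells carried either the control hairpin shNT or the hairpin sh4 against Stag2, a subunit of the cohesin ring. Quiescent cells carried the same hairpins, had reached confluence, had received 1 µM rosiglitazone and 0.5 µM erlotinib, and were labelled day 7. Each group had 1 library from each of experiments 5, 7 and 9, and the labels give each experiment its own batch number. Rosiglitazone is an agonist of PPAR gamma and erlotinib is an inhibitor of the epidermal growth factor receptor kinase. Confluence, the drugs and time in culture differed together between the states, so they cannot be told apart here. A single cell line and a single Stag2 hairpin were used.

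PPARs are nuclear receptors that bind fatty acids and their derivatives, pair with the retinoid X receptor (RXR) and switch on genes of lipid handling. Long-chain fatty acids are taken up and bound by carrier proteins, activated to acyl-CoA, stored in lipid droplets or carried into mitochondria by the carnitine shuttle, and then shortened in a repeating spiral of reactions that passes electrons to the respiratory chain. Peroxisomes shorten the longest chains and detoxify the hydrogen peroxide that this makes. PPAR gamma agonists, given together with a block of epidermal growth factor signalling, are a common way to start urothelial differentiation in culture, and in fat cells the same agonists raise genes such as Fabp4, Cd36, Plin1 and Cidec.

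The PPAR-RXR pair binds repeats of the hexamer AGGTCA with a spacer of 1 base, a site known as DR1. RefSeq promoters of 300 bases (250 before the start site and 50 after, GRCm38.p6) were at hand for 36 of the 44 genes, as 40 promoters. The 13 bases AGGTCANAGGTCA were searched on both strands with up to 2 mismatches, and no other motif was searched. A match was present in 5 of the 40 promoters (12.5%), against 3.86% of all 32851 promoters in the table and 2.85% of the 11414 promoters of tested genes. With at most 1 mismatch no promoter of the list held a match, against 0.554% of all promoters. The 5 matches are shown with 8 bases on each side, in the direction of the gene and with the match in capitals, because they are the stretches of these promoters most like the receptors' site.
Cd36, chr5:17835939-17835967, minus strand: tggttctcTGGCCTCTGACTTacttggat
Plin2, chr4:86670264-86670292, minus strand: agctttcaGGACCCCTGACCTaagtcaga
Slc25a20, chr9:108662134-108662162, plus strand: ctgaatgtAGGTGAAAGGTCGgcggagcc
Etfa, chr9:55512300-55512328, minus strand: gcacacccTTACCTTTGCCCTactcccaa
Cat, chr2:103485337-103485365, minus strand: actctcagAGGTCAGAGAACAccagcagg
The motif read in the direction of the gene in Slc25a20 and Cat and on the opposite strand in Cd36, Plin2 and Etfa. A match is a description of these letters and was not shown to be bound.

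Library totals ran from 14524429 to 21987539 counts, and the 44 genes together took between 0.21% and 0.294% of them. Levels are given as CPM, read counts scaled to equal library sizes after TMM adjustment, and differences as log2 fold changes from edgeR's quasi-likelihood test with p-values adjusted over all tested genes by the Benjamini-Hochberg method. A change was called at an adjusted p below 0.05. The labels do not say more of the replicates than the experiment, so p-values measure the spread between these experiments, which may in part be technical. Stag2 was at 113 to 145 CPM in proliferating controls and 24.6 to 33.3 CPM in proliferating knockdown cells. In quiescent cells it was at 107 to 128 CPM with shNT and 9.43 to 15.3 CPM with sh4, so each library matched its label for this gene. The 18 epithelial and urothelial markers, which pool general epithelial keratins with uroplakins, summed to 11474 to 20207 CPM. By group the sums were 12253 to 17191 CPM in proliferating controls and 14591 to 15991 CPM in proliferating knockdown cells. They were 11474 to 17382 CPM in quiescent controls and 19672.5 to 20207 CPM in quiescent knockdown cells, the latter above every other library. The difference in sums was not tested. Of the 18, 15 had enough reads to be tested. Upk1b did not, Trp63 was at 0 in all libraries and Upk3a had 1 count in all. Summed adipocyte markers (Adipoq, Lep, Retn, Cfd and Plin1) stayed between 0 and 0.069 CPM, with Adipoq and Plin1 at 0 everywhere.

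Per kilobase of exon, the most abundant of the 44 transcripts in proliferating controls was Plin2, which coats lipid droplets, at 83.8 ± 14.8 CPM per kb (SD, n = 3). Acsl5, which activates long-chain fatty acids, followed at 70.3 ± 16.5 CPM per kb, and these levels did not differ beyond their spread. Acadl, the long-chain acyl-CoA dehydrogenase, came next at 49.6 ± 11.1 CPM per kb. The electron transfer flavoprotein subunits Etfa (38.1 ± 3.37) and Etfb (37.9 ± 2.32 CPM per kb) followed and lay within each other's spread. At the lower end of the tested genes were Acsl1 (1.18 ± 0.303), the peroxisome division factor Pex11a (0.542 ± 0.0873) and the lipase inhibitor Angptl4 (0.41 ± 0.379 CPM per kb). Transcripts of mitochondrial oxidation such as Acadl, Etfa and Etfb were thus present in growing cells, which had received no rosiglitazone. Their place among all genes was not ranked.

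The other 9 genes of the list were at or near the counting limit in every library and were not tested. They held 115 counts between them over all 12 libraries, and none passed 0.291 CPM in any library. A count of 0 allows up to 3 counts, which is 0.136 to 0.207 CPM depending on the library, for counting error only. Fabp4, the fatty acid carrier of fat cells and macrophages, had 4, 4 and 2 counts in proliferating controls of experiments 5, 7 and 9, then 5, 1 and 4 in proliferating knockdown cells. In quiescent cells Fabp4 had 1, 0 and 2 counts with shNT and 2, 0 and 1 with sh4. Rosiglitazone-treated cultures therefore held fewer Fabp4 reads than untreated ones, 3 in all against 10 with either hairpin. With at most 5 counts in a library, this difference was not tested. Cd36, a fatty acid translocase of the cell surface, had 9 counts in all: 0, 1 and 1 in proliferating controls, 0 in each proliferating knockdown library, 2, 0 and 0 in quiescent controls and 2, 1 and 2 in quiescent knockdown cells. Pdk4, the kinase that turns off pyruvate dehydrogenase when fat is burned, had 1 count in the proliferating knockdown library of experiment 7 and 0 in the other 11 libraries. The droplet proteins Plin4 (6 counts), Plin5 (9), Cidea (19) and Cidec (2), the muscle carnitine transferase Cpt1b (32) and the peroxisomal bifunctional enzyme Ehhadh (11) completed this set. Cd36 carries a DR1-like match in the promoter shown above, and its transcript was still barely detected.

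Quiescence in control cells was the first comparison. Of the 35 tested genes 5 were called (14.3%, against 20.0% of all tested genes). Upward there were 4, namely Pex11a, Plin3, Ech1 and Pnpla2, and downward 1, Acsl3. These are levels in bulk RNA, in which fewer cells with a transcript and less of it per cell cannot be told apart. In the GRCm38 annotation (GENCODE M21) these genes span chr7:79735957-79743131 (Pex11a), chr17:56277476-56292873 (Plin3), chr7:28825217-28832247 (Ech1), chr7:141455198-141460743 (Pnpla2) and chr1:78657825-78707743 (Acsl3). Thus 11.4% of the tested genes of the list rose, where 8.33% of all tested genes did, and 2.86% fell, where 11.7% of all tested genes did. The median change of the list was 0.19 on the log2 scale against 0.00 for all tested genes. A positive change was seen for 23 of 35 genes (65.7%, against 50.4% of all tested genes). With the experiment number as a block, which the shared batch numbers of the labels allow, 13 genes were called (37.1%, background 35.3%), 10 of them higher (background 16.8%) and 3 lower (background 18.5%). The added genes were Slc25a20, Acadvl, Etfdh, Cat, Acadm and Acot1 upward, and Acsl4 and Acsl5 downward. When the proliferating control library of experiment 5 was left out without the block, 8 genes were called higher and 2 lower. The share of all genes called in that fit was not counted, so this rise is not read as particular to the list. The 3 quiescent control libraries all lay above the 3 proliferating ones for 8 genes (17.1% of all tested genes did so) and all lay below them for 3 (18.5% of all tested genes).

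**Figure D1:**
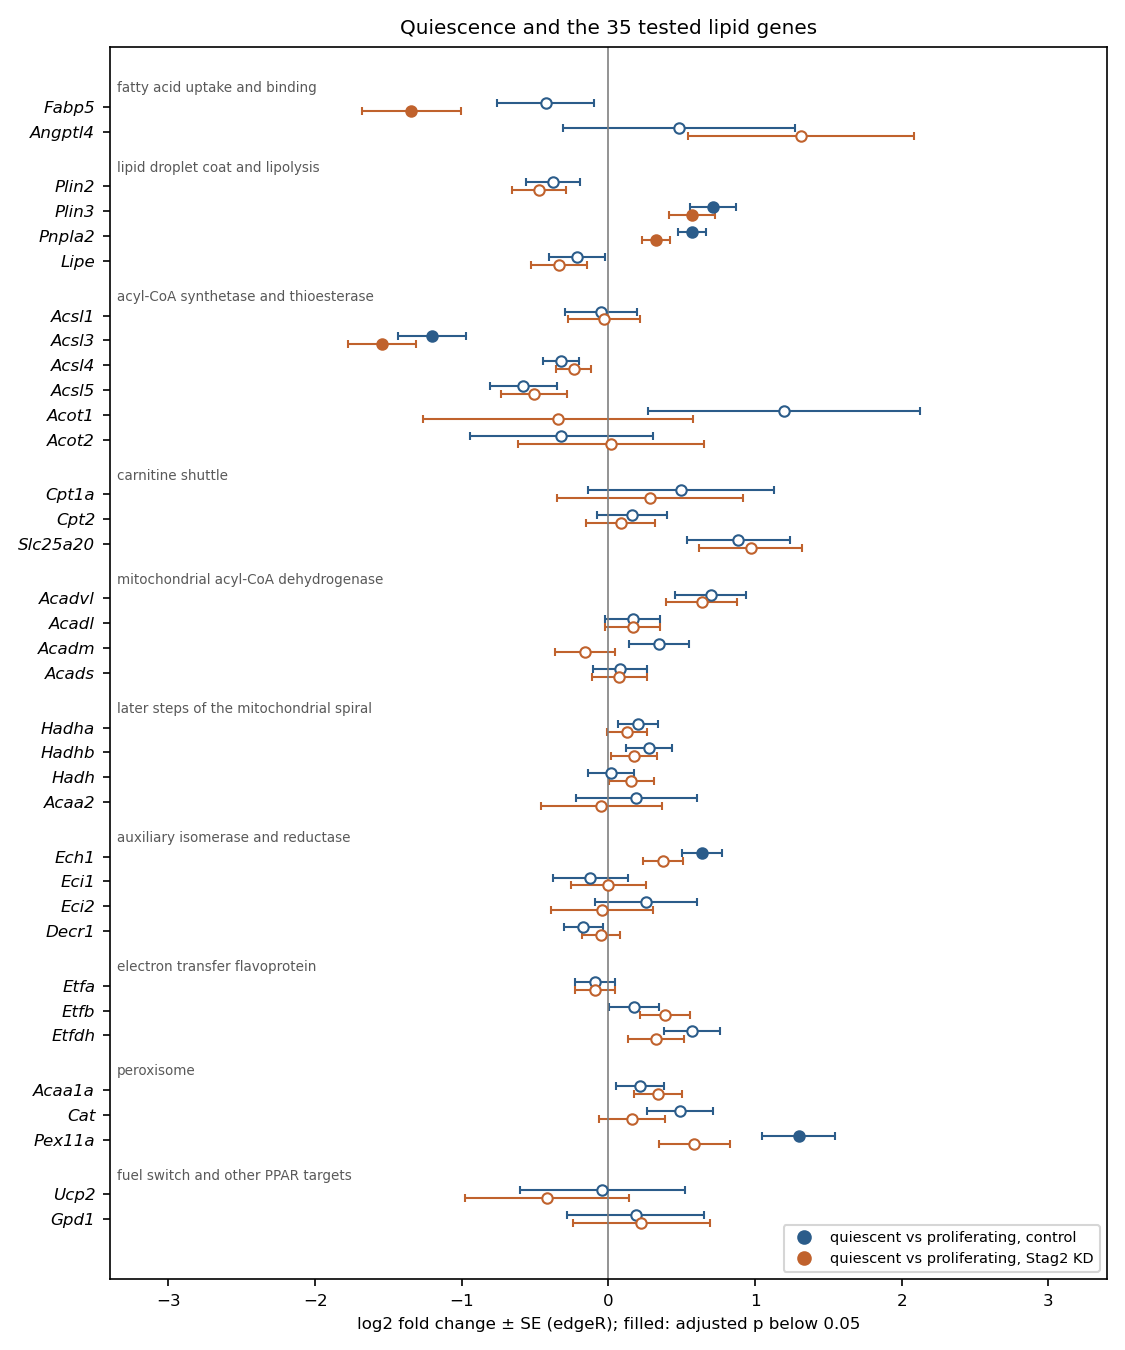
Log2 fold change with quiescence (quiescent over proliferating) for the 35 tested genes, with bars of 1 standard error from edgeR, in control and in Stag2 hairpin cells. Filled symbols have an adjusted p below 0.05. Pex11a, Plin3, Ech1 and Pnpla2 are filled to the right and Acsl3 to the left in control cells.

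In uptake and binding, neither tested gene passed the test in control cells. Angptl4, a secreted inhibitor of lipoprotein lipase and a classical PPAR target, was at 2.92, 1.15 and 0.284 CPM in proliferating controls of experiments 5, 7 and 9 and at 3.24, 0.489 and 2.39 CPM in quiescent controls. These ranges overlapped almost fully, and the log2 fold change of 0.48 (SE 0.79) had an edgeR adjusted p of 0.706, or 0.562 with the block. The lowest of these values rest on 5 and 8 counts. Fabp5, the epidermal fatty acid carrier, changed by -0.43 (SE 0.33; edgeR adjusted p = 0.388).

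Among the droplet coat and lipolysis genes, 2 of 4 tested genes rose with quiescence (background 8.33%) and 0 fell (background 11.7%). Plin3, a coat protein of nascent droplets, was at 133, 112 and 94.2 CPM in proliferating controls and 200.3, 197 and 159 CPM in quiescent controls of experiments 5, 7 and 9. Every quiescent library lay above every proliferating one, a 1.64-fold rise (log2 0.72, SE 0.16; edgeR adjusted p = 0.00868). Pnpla2, the lipase that opens triglyceride breakdown, was at 76.4, 75 and 70.5 CPM before and 110.5, 103 and 115 CPM after. The groups did not overlap, and it rose 1.48-fold (log2 0.57, SE 0.10; edgeR adjusted p = 0.00216). Plin2, the general droplet coat and another classical PPAR target, went the other way in value: 350.2, 247 and 285 CPM in proliferating controls and 206, 198 and 276 CPM in quiescent controls. Only the quiescent library of experiment 9 reached into the proliferating range, and the log2 fold change of -0.38 (SE 0.18) did not pass the test (edgeR adjusted p = 0.171, and 0.116 with the block). The hormone-sensitive lipase Lipe changed by -0.21 (SE 0.19). The promoter of Plin2 has the DR1-like match printed above, while those of Plin3 and Pnpla2 hold none.

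Of the 6 acyl-CoA synthetases and thioesterases, 1 fell (background 11.7%) and 0 rose (background 8.33%). Acsl3, the synthetase that sits on the endoplasmic reticulum and on droplets, was at 96.4, 57.7 and 52.7 CPM in proliferating controls and at 27, 27.3 and 35.5 CPM in quiescent controls. The ranges were apart, and the level fell to 0.435 of its start (log2 -1.2, SE 0.23; edgeR adjusted p = 0.00448). Acsl3 shares 140 bases of exon with Utp14b on the same strand, so part of its reads could be assigned either way. Acsl4, which prefers arachidonic acid, and Acsl5 moved to lower values as well, by -0.32 (SE 0.12) and -0.58 (SE 0.23). Their edgeR adjusted p was 0.0798 and 0.0954, and 0.0305 and 0.0457 with the block. Acsl1 changed by -0.05 (SE 0.24). The thioesterases Acot1 and Acot2, which release free acids from acyl-CoA, are near copies of each other (93.8% identical over 1337 aligned transcript bases), so how their reads were divided is uncertain. Their log2 fold changes were 1.2 (SE 0.93) and -0.32 (SE 0.62), neither past the test, and Acot1 was called with the block (edgeR adjusted p = 0.0488).

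No gene of the carnitine shuttle was called without the block. Cpt1a, the rate-setting transferase on the outer mitochondrial membrane, was at 211, 61.5 and 44.2 CPM in proliferating controls of experiments 5, 7 and 9 and at 180.2, 104 and 163 CPM in quiescent controls. The proliferating library of experiment 5 was above all 3 quiescent libraries, the other 2 were below them, and the log2 fold change of 0.50 (SE 0.63) had an edgeR adjusted p of 0.618. Within experiments the differences were -0.23, 0.76 and 1.88 in log2 CPM, and the blocked fit gave an adjusted p of 0.194. Slc25a20, the carrier that exchanges acylcarnitine across the inner membrane, went from 27.2, 10.3 and 11.7 CPM to 34.2, 23.4 and 33.3 CPM; it is described in full because of these values, outside the rule for named genes. It was higher in quiescent cells in each experiment, and its log2 fold change of 0.89 (SE 0.35) had an edgeR adjusted p of 0.0991, or 0.00453 with the block. Cpt2, the inner-membrane transferase, changed by 0.16 (SE 0.24).

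In the mitochondrial spiral, the 4 acyl-CoA dehydrogenases had positive changes between 0.08 and 0.70 and none passed the test without the block. The largest was that of Acadvl, the very-long-chain enzyme (0.70, SE 0.24; edgeR adjusted p = 0.0655, and 0.00622 with the block), which shares 377 bases of exon with Dvl2 on the opposite strand. Acadm, the medium-chain enzyme, changed by 0.34 (SE 0.20; edgeR adjusted p = 0.25, and 0.0382 with the block). The later enzymes of the spiral, the trifunctional protein subunits Hadha and Hadhb, the short-chain dehydrogenase Hadh and the thiolase Acaa2, ranged from 0.02 to 0.28, with none called by edgeR in either fit. Of the auxiliary enzymes that handle unsaturated chains, Ech1 rose: it was at 64.7, 53.9 and 63.5 CPM in proliferating controls and at 89.6, 87.5 and 106 CPM in quiescent controls. The groups did not overlap, and the rise was 1.55-fold (log2 0.64, SE 0.14; edgeR adjusted p = 0.00811). The isomerases Eci1 and Eci2 changed by -0.12 and 0.26, and the dienoyl-CoA reductase Decr1 by -0.17, none past the test. In the electron transfer flavoprotein system, the subunits Etfa and Etfb changed by -0.09 and 0.17. Their oxidoreductase Etfdh, which passes the electrons on to ubiquinone, changed by 0.57 (SE 0.19; edgeR adjusted p = 0.0563, and 0.014 with the block).

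The peroxisomal gene Pex11a had the largest called change of the list with quiescence in control cells. It was at 1.57, 1.56 and 2.05 CPM in proliferating controls (27 to 36 counts) and 3.52, 4.22 and 5.01 CPM in quiescent controls (51 to 84 counts). All quiescent libraries were above all proliferating ones, and the level rose 2.46-fold (log2 1.30, SE 0.25; edgeR adjusted p = 0.00439). The within-experiment differences of 1.11, 1.37 and 1.25 in log2 CPM were close to each other. The neighbouring gene Plin1, the droplet coat of fat cells, lies 3052 bases away on chromosome 7 and had 0 counts in all libraries. The 250 bases before the Pex11a start site (GRCm38.p6, chr7:79743132-79743381, minus strand) are printed as the upstream sequence of the gene with that change, in lower case throughout because the search found no DR1-like match there.
Pex11a upstream: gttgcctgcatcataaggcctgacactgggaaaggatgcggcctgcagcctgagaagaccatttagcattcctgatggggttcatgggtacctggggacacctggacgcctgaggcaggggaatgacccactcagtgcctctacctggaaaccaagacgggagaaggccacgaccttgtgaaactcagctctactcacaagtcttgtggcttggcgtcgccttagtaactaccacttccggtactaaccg
The promoters of Ech1 and Acsl3 hold no match either, so none of the 5 genes called without the block does. Of the genes added by the block, Slc25a20 and Cat each hold 1, while Acadvl, Etfdh, Acadm, Acot1, Acsl4 and Acsl5 hold none. Sites outside these promoter stretches were not searched. Catalase (Cat), which breaks down hydrogen peroxide, changed by 0.49 (SE 0.23; edgeR adjusted p = 0.148, and 0.0291 with the block). The thiolase Acaa1a, whose transcript is 96.6% identical to that of Acaa1b over 1428 bases, changed by 0.22. The uncoupling protein relative Ucp2 and the glycerol-3-phosphate dehydrogenase Gpd1 changed by -0.04 (SE 0.56) and 0.19 (SE 0.47).

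**Figure D2:**
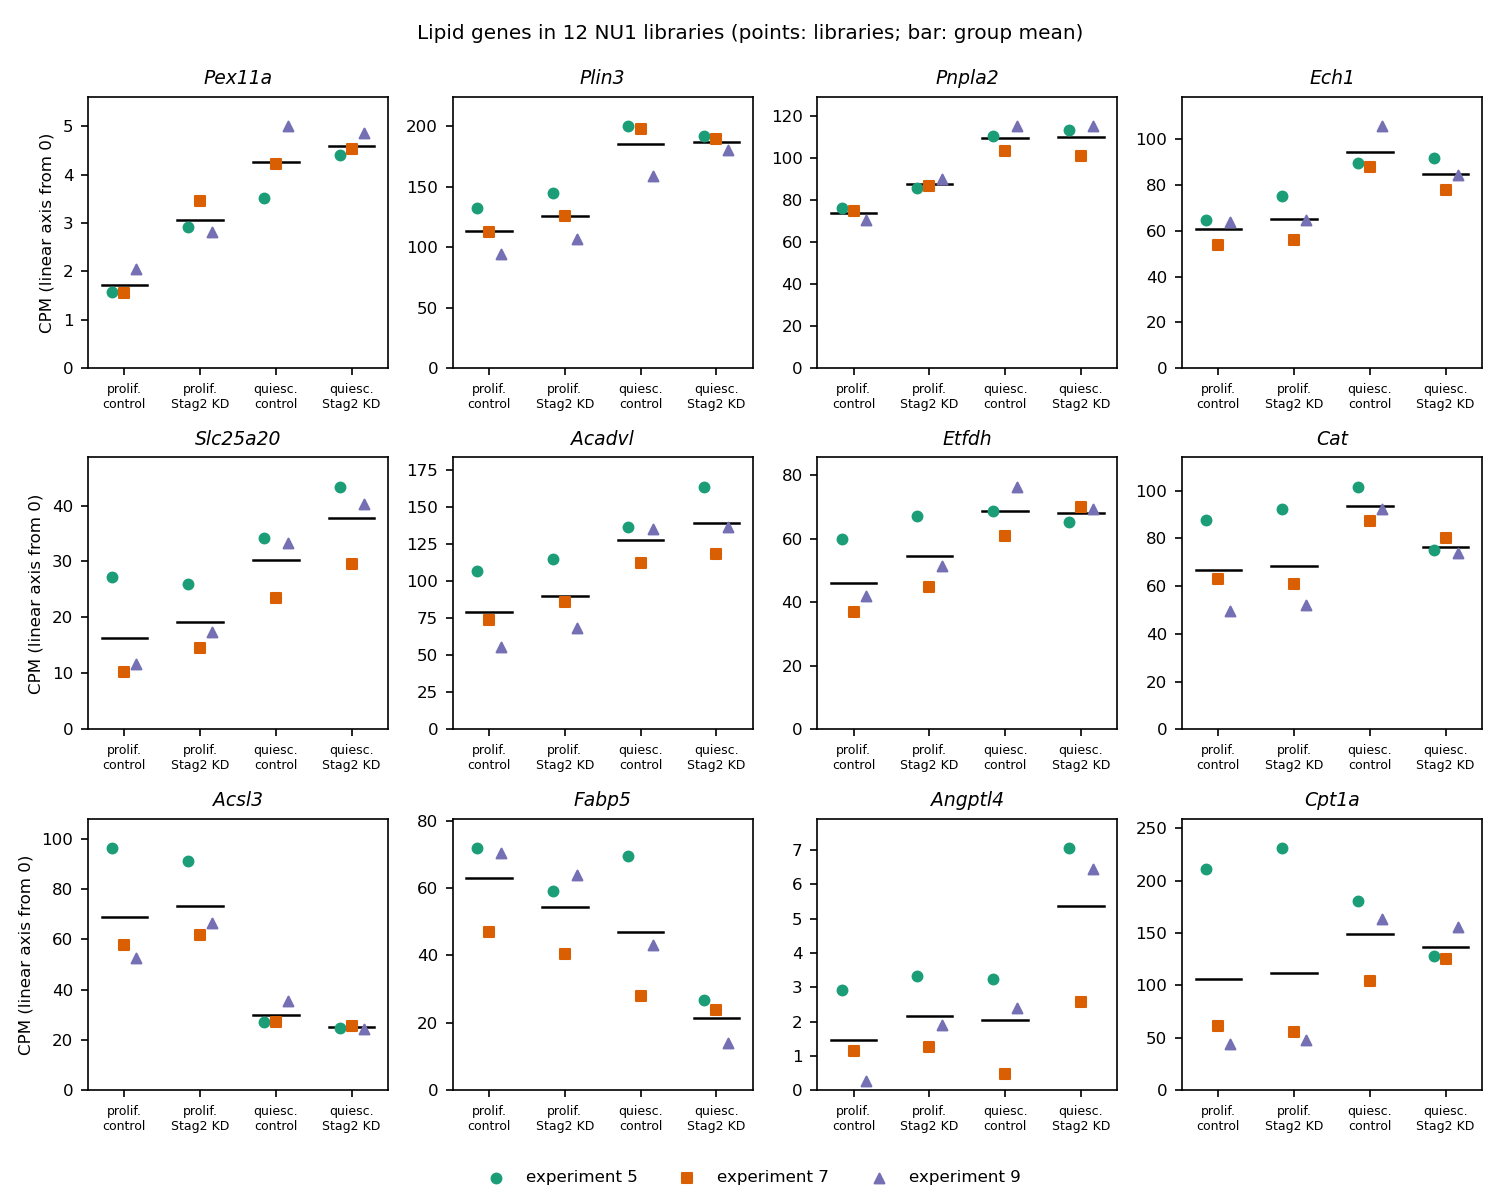
Level of 12 of the genes in each of the 12 libraries, in CPM on a linear axis from 0, with groups along the horizontal axis, marker shape and colour for the experiment and a bar at each group mean (n = 3). For Pex11a, Plin3, Pnpla2 and Ech1 the quiescent libraries lie above the proliferating ones with either hairpin and for Acsl3 below them, whereas for Cpt1a the proliferating libraries of experiment 5, at 211 and 231 CPM, lie above all others.

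Quiescence in the knockdown cells gave 4 calls among the 35 genes (11.4%, background 18.4%). Plin3 and Pnpla2 rose (5.71% of the tested genes, background 7.59%), and Acsl3 and Fabp5 fell (5.71%, background 10.8%). With the block there were 8 calls (22.9%, background 33.0%). Of these, 6 were higher (background 15.9%), namely Plin3, Pnpla2, Pex11a, Ech1, Slc25a20 and Acadvl, and 2 lower, again Acsl3 and Fabp5 (background 17.2%). Plin3 went from 145, 126 and 107 CPM to 192, 189 and 179.9 CPM in experiments 5, 7 and 9 (log2 0.57, SE 0.16; edgeR adjusted p = 0.0266). Pnpla2 went from 85.9, 86.7 and 90.2 CPM to 113, 101 and 115 CPM (log2 0.33, SE 0.09; edgeR adjusted p = 0.0352). Neither pair of groups overlapped. No gene was called higher when the proliferating knockdown library of experiment 7 or 9, or the quiescent knockdown library of experiment 5 or 9, was left out. A single gene was called higher when the proliferating control of experiment 7 or the quiescent control of experiment 5 was left out. For these fits too, the share of all genes called was not counted.

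Acsl3 fell in the knockdown cells from 91.2, 61.6 and 66.5 CPM to 24.9, 25.6 and 24.5 CPM (log2 -1.55, SE 0.23; edgeR adjusted p = 0.00155). Its 3 quiescent knockdown libraries lay close together and below every proliferating one. Fabp5 went from 59.1, 40.5 and 63.9 CPM to 26.7, 23.7 and 14 CPM, with no overlap, and its change of -1.34 (SE 0.34) passed the test (edgeR adjusted p = 0.0194). It was not called when the knockdown library of experiment 9 was left out of either state. Pex11a went from 2.91, 3.46 and 2.81 CPM to 4.40, 4.53 and 4.86 CPM, without overlap, and its change of 0.59 (SE 0.24) had an edgeR adjusted p of 0.115, or 0.0497 with the block. Ech1 changed by 0.37 (SE 0.14; edgeR adjusted p = 0.0792, and 0.0175 with the block), Slc25a20 by 0.97 (0.0782, and 0.0039 with the block) and Acadvl by 0.64 (0.0934, and 0.012 with the block).

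Plin2, Cpt1a and Angptl4 showed no called change in these cells either. Plin2 was at 347, 257 and 240.4 CPM in proliferating and 189, 206 and 213 CPM in quiescent knockdown cells. The groups were apart, and the change of -0.47 (SE 0.18) had an edgeR adjusted p of 0.0977, or 0.0585 with the block. Cpt1a was at 231, 55.7 and 48.4 CPM and then 128, 126 and 155 CPM, again with the proliferating library of experiment 5 above all quiescent ones (log2 0.29, SE 0.63; edgeR adjusted p = 0.788, and 0.252 with the block). Angptl4 was at 3.32, 1.25 and 1.89 CPM and then 7.07, 2.56 and 6.45 CPM, higher in quiescent cells in each experiment but overlapping between groups (log2 1.31, SE 0.77; edgeR adjusted p = 0.262, and 0.0646 with the block). The median change of the list was 0.08 against 0.00 for all tested genes. Of the 35 genes, 30 (85.7%) changed in the same direction with either hairpin, as did 84.2% of all tested genes. The 3 libraries of each state did not overlap for 6 genes that were higher (background 18.1%) and 5 that were lower (background 19.1%).

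Many of the lipid genes were highest in experiment 5. The library of experiment 5 was the highest of 3 for 30 of 35 genes in proliferating controls (85.7%, against 38% of all tested genes) and for 27 of 35 in proliferating knockdown cells (77.1%, against 36.4%). In quiescent cells it was the highest for 17 (48.6%, against 30.3%) and 20 (57.1%, against 36.6%) genes. In proliferating controls the level in experiment 5 was 4.0 times the mean of experiments 7 and 9 for Cpt1a, 3.49 times for Ucp2, 2.46 times for Slc25a20 and 2.43 times for Acaa2, but 1.05 times for Pnpla2 and 0.872 times for Pex11a. The median quiescence difference of the 35 genes in control cells was 0.07, 0.11 and 0.62 in log2 CPM in experiments 5, 7 and 9, where the median of all genes stayed between -0.00 and 0.01. In knockdown cells it was -0.00, 0.08 and 0.25. Batch and experiment coincide in the labels, and what set experiment 5 apart was not tested.

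**Figure D3:**
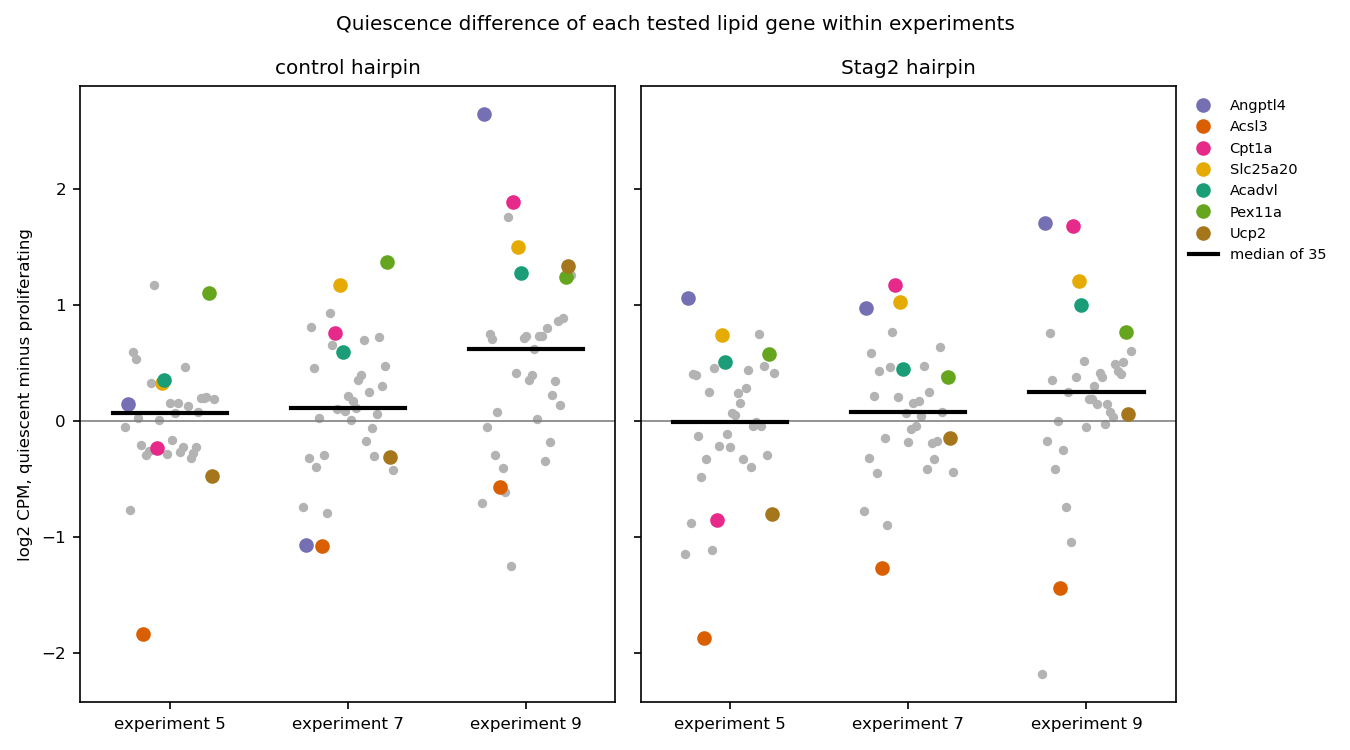
Difference in log2 CPM between quiescent and proliferating libraries within each experiment, for control hairpin cells on the left and Stag2 hairpin cells on the right. Each point is 1 of the 35 tested genes, with 7 coloured by name, and black bars are medians. Pex11a stays between 1.11 and 1.37 in control cells, whereas Cpt1a runs from -0.23 to 1.88.

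The receptors themselves gave a second view of this pathway. Ppard, the widely expressed PPAR delta, was the only PPAR at a high level and fell with quiescence in both hairpins. It was at 183, 188 and 127 CPM in proliferating controls and 82.7, 64.2 and 53.0 CPM in quiescent controls (log2 -1.32, SE 0.28; edgeR adjusted p = 0.00719), and at 185, 162 and 90.7 CPM and then 54.0, 57.1 and 37.7 CPM in knockdown cells (log2 -1.56, SE 0.28; edgeR adjusted p = 0.00352). Neither pair of groups overlapped. Pparg, the receptor for rosiglitazone, was low: 3.70, 2.77 and 7.73 CPM in proliferating and 5.38, 4.34 and 8.65 CPM in quiescent controls, with overlap and an edgeR adjusted p of 0.567. In knockdown cells Pparg was at 3.5, 1.79 and 3.44 CPM and then 2.40, 1.79 and 2.29 CPM. Quiescent knockdown cells thus lay below quiescent controls in all libraries (log2 -1.50, SE 0.43), with an edgeR adjusted p of 0.175, or 0.0207 with the block. Ppara, the receptor of fat-burning liver, stayed between 0.168 and 0.762 CPM and was not tested. Per kilobase in quiescent controls, Ppard stood at 8.86 ± 2.00 CPM per kb, Pparg at 2.07 ± 0.76 and Ppara at 0.0908 ± 0.0622 (SD, n = 3). The partner Rxra went from 134, 77.5 and 90.4 CPM to 145, 102 and 155 CPM in control cells, with overlap (log2 0.42, SE 0.26; edgeR adjusted p = 0.29, and 0.0313 with the block). Rxrb changed by 0.02 (SE 0.20).

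**Figure D4:**
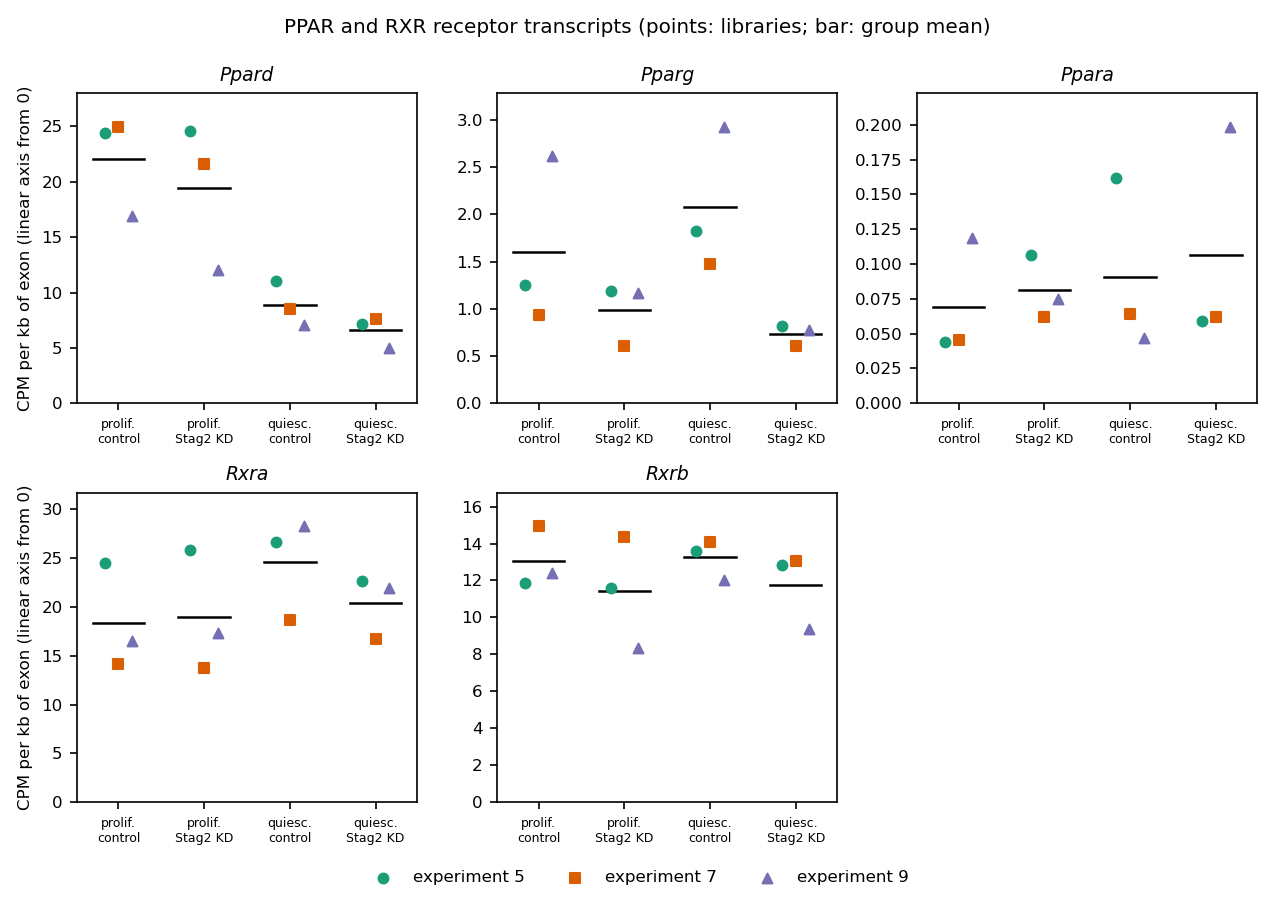
Level of the PPAR and RXR receptors in each library, in CPM per kb of exon on a linear axis from 0, by group, with marker shape and colour for the experiment and a bar at each group mean (n = 3). Mean Ppard drops from 22.1 in proliferating to 8.86 CPM per kb in quiescent controls, and mean Ppara stays near or below 0.107 CPM per kb in all groups.

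Other lists place these genes in their pathway. Of 30 other PPAR targets, 29 were in the table and 12 were tested. Me1, the malic enzyme that supplies NADPH, rose by 1.02 with quiescence in control cells (SE 0.33; edgeR adjusted p = 0.0494). In knockdown cells the pantetheinase Vnn1 rose by 2.87 from values below 0.4 CPM (SE 0.82; edgeR adjusted p = 0.0332). In all, 2 of the 12 were called higher and 0 lower with either hairpin (background 8.33% and 11.7% in control, 7.59% and 10.8% in knockdown cells). With the block, 4 were higher (background 16.8%) and 3 lower (18.5%) in control cells, and 6 higher (15.9%) and 1 lower (17.2%) in knockdown cells. Several classical targets in this list were at or near 0, including Plin1, Adipoq, Cyp4a10 and Cyp4a14, all at 0 in every library.

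Of 45 other genes of fatty acid oxidation and peroxisomes, 44 were in the table and 38 were tested, with a median change of 0.27 in control cells. In control cells 3 were called higher (background 8.33%) and 1 lower (background 11.7%). Acadsb, the short branched-chain dehydrogenase (0.93, SE 0.19), and Dgat1, which makes triglyceride (0.59, SE 0.17), rose with quiescence in control cells, while the peroxisomal membrane channel Pxmp2 fell by 1.02 (SE 0.27), each at an edgeR adjusted p below 0.05. With the block 14 rose (background 16.8%) and 1 fell (background 18.5%). In knockdown cells Mlycd, which degrades malonyl-CoA, rose by 0.72 (SE 0.19; edgeR adjusted p = 0.0238), the only call of 38 without the block (background 7.59% higher), and 15 rose with it (background 15.9%). Of 16 tested PPAR coregulators, 2 were called higher with either hairpin in the blocked fit (background 16.8% in control and 15.9% in knockdown cells), and these calls rested on the block.

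Knockdown of Stag2 in proliferating cells gave 0 calls among the 35 genes by edgeR's test, with or without the block, where 0.0242% of all tested genes were called. DESeq2 called 0 as well, where it called 0.097% of all genes. Values were higher with sh4 for 28 of 35 genes (80%, against 49.5% of all tested genes), and the median difference was 0.10 against -0.00 for all tested genes. The 35 genes were measured in the same libraries and are not separate observations. The 3 knockdown libraries all lay above the 3 controls for Pnpla2, Etfb and Pex11a (background 2.66%) and all lay below for none (background 2.65%). Pex11a had 2.91, 3.46 and 2.81 CPM with sh4 beside the 1.57, 1.56 and 2.05 CPM of the controls, a difference of 0.82 (95% interval 0.28 to 1.37; edgeR adjusted p = 0.9998). These are the same control libraries against which its quiescence change was measured. Pnpla2 differed by 0.24 (0.04 to 0.45; edgeR adjusted p = 0.9998).

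**Figure D5:**
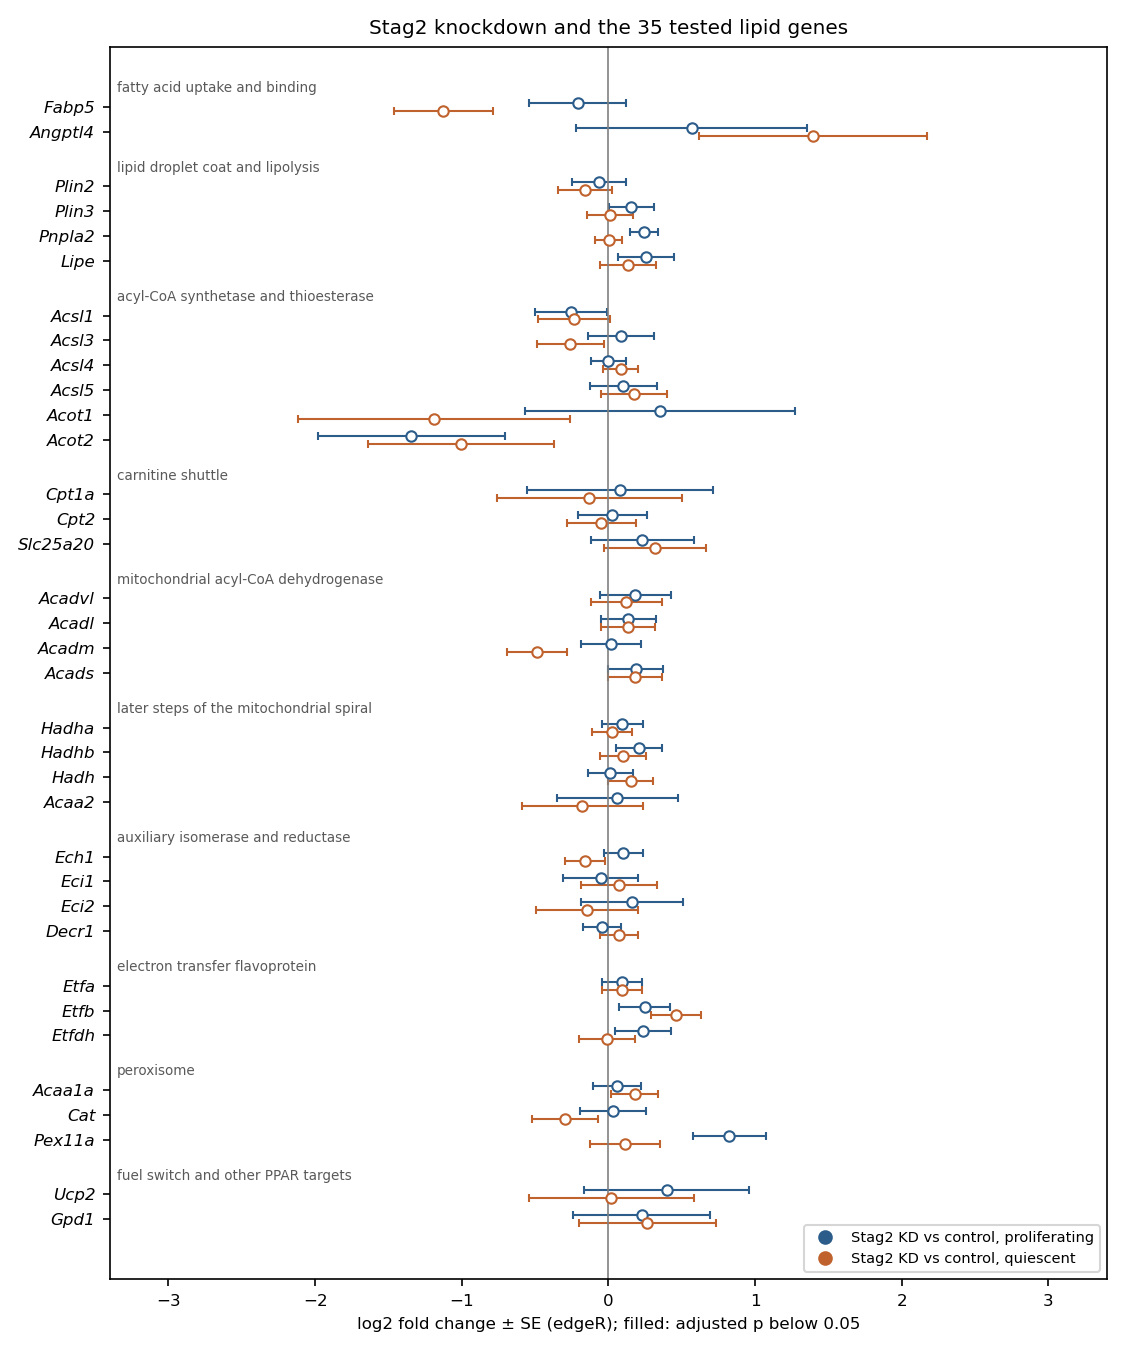
Log2 fold change with Stag2 knockdown for the 35 tested genes in proliferating and in quiescent cells, with bars of 1 standard error from edgeR. No symbol is filled, since no gene had an adjusted p below 0.05. Fabp5 in quiescent cells (-1.12) and Pex11a in proliferating cells (0.82) lie away from 0.

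Knockdown in quiescent cells gave 0 calls among the 35 genes by edgeR's test (background 0.435%, with 0.153% higher and 0.282% lower) and 0 with the block (background 3.55%, with 1.59% higher and 1.96% lower). DESeq2 called 1, Fabp5, where it called 3.21% of all genes. The median difference was 0.02, as it was for all tested genes. The knockdown libraries all lay below the controls for Fabp5, Acsl3, Acot2, Acadm and Cat (background 8.85%) and all lay above for none (background 10.2%). Fabp5 was at 69.6, 28.0 and 43.0 CPM in quiescent controls and 26.7, 23.7 and 14 CPM in quiescent knockdown cells, a difference of -1.12 (95% interval -1.87 to -0.38; edgeR adjusted p = 0.197, and 0.0557 with the block). Acadm was at 50.9, 45.7 and 46.6 CPM in controls and 38.4, 35.5 and 28.2 CPM in knockdown cells, lower in each library (-0.49, interval -0.93 to -0.04; edgeR adjusted p = 0.368, and 0.0534 with the block). These values of Fabp5 and Acadm are shown outside the rule for named genes, and both genes were chosen after their values were seen. Size alone did not set this choice: Acot1 and Acot2 had larger differences than Acadm, and their values in each library are not shown. Angptl4 was higher with sh4 in each experiment, by 1.10, 2.15 and 1.39 in log2 CPM, but the group ranges overlapped (1.40, interval -0.31 to 3.10; edgeR adjusted p = 0.533, and 0.127 with the block).

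For the genes that rose with quiescence, the 95% intervals of the knockdown difference in quiescent cells ran from -0.33 to 0.35 for Plin3, from -0.21 to 0.21 for Pnpla2 and from -0.46 to 0.14 for Ech1. For Pex11a the interval ran from -0.41 to 0.64, and for Cpt1a from -1.52 to 1.26, too wide to place its level. These intervals come from the fit without the block. With the block the SE was smaller for Cpt1a (0.43 against 0.63) and for Plin3 (0.10 against 0.15). Quiescent knockdown cells also differed from quiescent controls in summed leukocyte markers, 110 to 169 against 39.6 to 61.8 CPM. The sums were lower in proliferating cells with the same hairpin, at 15.5 to 33.2 CPM in controls and 26.2 to 55.3 CPM in knockdown cells. These sums were nearly all Csf1r (104 to 163 against 32.3 to 59.7 CPM in quiescent cells). Between hairpins in quiescent cells Csf1r differed by 1.57 on the log2 scale (SE 0.40), with an edgeR adjusted p of 0.128, or 0.0385 with the block. The only other tested marker of this list, Cd68, differed by -0.23 (SE 0.62), with an edgeR adjusted p of 0.93. Csf1r rose with quiescence in knockdown cells (log2 1.81, SE 0.40, edgeR adjusted p = 0.011). It had a log2 difference of 1.02 in control cells (SE 0.40, edgeR adjusted p = 0.0982). The part of these markers in the lipid gene differences between states or hairpins was not tested.

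The test of the interaction, whether knockdown acted differently in the 2 states, called none of the 35 genes and no gene at all (background 0%). DESeq2 called 0 of the 35, where it called 0.0485% of all genes. The largest values were -1.54 (SE 1.30) for Acot1 and -0.91 (SE 0.47) for Fabp5. Pex11a, which rose by 1.30 with quiescence in control and by 0.59 in knockdown cells, had an interaction of -0.71 (95% interval -1.46 to 0.04; edgeR adjusted p = 0.9997).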

How the data were processed

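The values were deposited as raw read counts, with 1 whole number for each symbol in each library. The submitters' processing notes name Bowtie, TopHat, HTSeq, DESeq2 and the mouse build mm10, while their settings, the gene models and the strand option of the counter are not given in the sources used here. Per the labels, polyadenylated RNA was made into stranded libraries after ERCC spike-ins were added. The table as used here had no ERCC rows, so levels are relative to the library total.

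Tests used edgeR 4.0.16 under R 4.3.3. After filterByExpr (minimum count 10) and TMM scaling, glmQLFit was run on all 12 libraries with 4 group means, and glmQLFTest on 5 contrasts, with Benjamini-Hochberg adjustment over 12406 genes and a threshold of 0.05. The script was tested on simulated data. Log2 CPM used a prior count of 2, standard errors are the fold change over the root of the F statistic, and 95% intervals use its t quantile. Standard errors and intervals are from the fit without the block unless stated. CPM per kb used the merged exon length of GENCODE M21. Intervals and floors from counts cover counting error only. Chi-square per degree of freedom between replicates was 36.6 to 99.7, so none was a repeat of another.

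Experiment numbers pair the libraries, since the labels give each a batch of its own. Deviations from group means correlated at 0.526 on average between libraries of the same experiment (0.225 to 0.789, 18 pairs) and -0.259 between others. The biological coefficient of variation was 0.261, and 0.161 with experiment as a block.

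The genes, lists and tests were chosen with earlier results of these data known. Values in every library are given for genes called in control quiescence (at most 12), genes called in any knockdown or interaction contrast, and Fabp4, Plin2, Angptl4, Pdk4, Cpt1a and Cd36. From the other lists, receptors are named, and at most 4 called genes per list, except some that are not reported here. Alternatives were the block, median-of-ratios scaling, DESeq2 1.42.0, other filters on low counts, fits to only the libraries compared, and leaving out each library. Promoter sequences come from RefSeq, GRCm38.p6.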

Additional observations from a re-analysis of the deposited data

Results flagged for a closer look

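Acadm, the medium-chain acyl-CoA dehydrogenase, had quiescence differences of opposite sign in the 2 hairpins, neither past edgeR's test (adjusted p = 0.25 in control and 0.617 in knockdown cells). In control cells the quiescent library was higher in each of experiments 5, 7 and 9, by 0.16, 0.22 and 0.74 in log2 CPM. In Stag2 knockdown cells it was lower in each, by -0.22, -0.18 and -0.05. The interaction was -0.505 on the log2 scale, with an edgeR adjusted p of 0.9997, or 0.852 with the replicate block, so the difference did not pass the test.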

How the results depend on the processing

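With the replicate block, the number of the 35 genes higher with quiescence in control cells went from 4 to 10 and the number lower from 1 to 3, and in knockdown cells the number higher went from 2 to 6. The block changed no knockdown or interaction call. DESeq2 called 6 higher and 2 lower in control cells (11.5% and 14.5% of all genes), 5 higher and 2 lower in knockdown cells (10.9% and 13.3%), and 1 (Fabp5) for knockdown in quiescent cells (3.21%). Without a filter on low counts, 1 was higher in knockdown cells. Leaving out each library in turn gave 4 to 8 higher and 1 to 2 lower in control cells, and 0 to 3 higher and 1 to 3 lower in knockdown cells. For the fits without a filter or with a library left out, the share of all genes called was not counted. The cause of these shifts was not tested. Over 21 gene results and 378 alternative fits, 333 kept direction and side of the threshold, 16 lost the call, 29 gained it and 0 reversed. The 21 include results called only with the block, for which keeping the side mostly means staying uncalled. Some fits left out a library outside the comparison. All lost calls were for quiescence in knockdown cells, where Pnpla2 lost its call in 9 of 18 alternatives, Plin3 in 5 and Fabp5 in 2. Acsl3, Pex11a, Plin3, Ech1 and Pnpla2 kept their calls in control cells in all 18 alternatives each. With 3 libraries per group and a spread this wide between experiments, changes of low genes such as Angptl4 and of Cpt1a could not be resolved.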

Other observations

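Coregulators and epithelial factors gave values that the comparisons above do not use. Ppargc1a, a coactivator of PPARs and of mitochondrial genes, was at 0.224, 0.173 and 1.19 CPM in proliferating controls and 1.24, 1.84 and 4.41 CPM in quiescent controls of experiments 5, 7 and 9. It was higher in each experiment (log2 2.22, SE 1.04), with an edgeR adjusted p of 0.153, or 0.0017 with the block. Phyh, which starts the breakdown of branched-chain acids in peroxisomes, was at 8.25, 2.77 and 6.88 CPM and then 13.7, 10.2 and 24.7 CPM (log2 1.44, SE 0.48; edgeR adjusted p = 0.0544, and 0.000937 with the block). Both were chosen after their values were seen.

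Of 15 tested epithelial markers in control cells, 3 fell with quiescence, 2 rose and 10 were not called, where 20.0% of all tested genes were called. Among them, the basal keratins Krt14 and Krt5 fell by 4.16 (SE 0.56) and 2.03 (SE 0.48) on the log2 scale, and the umbrella-cell keratin Krt20 fell by 0.97 (SE 0.18). The luminal factors Gata3 and Elf3 rose by 1.47 (SE 0.40) and 1.27 (SE 0.40). These 5 had an edgeR adjusted p below 0.05, and the 10 not called included Foxa1, Upk1a, Upk2, Upk3b, Krt7 and Krt8. With the block, Foxa1 (edgeR adjusted p = 0.00158) and Cdh1 (0.00828) were also called higher and Krt7 (0.0425) lower. In that fit 35.3% of all tested genes were called.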
